A study of Rattus norvegicus with 4 samples.

Results

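The fibrotic niche described here is a set of 261 spots in 1 kidney section of a rat injected with puromycin aminonucleoside (the group PAN). In this spatial assay RNA is captured on a grid of spots, each of which can cover a mixture of cell types. Spots were chosen by measured values: those with at least 3000 UMIs (unique molecular identifiers, the barcodes by which captured RNA molecules are counted) were ranked by the share of their UMIs that came from the 4 genes Lum, Postn, Tnc and Ltbp2, and the top 10% were taken as the niche. The PAN section held 2729 spots, of which 122 had fewer than 3000 UMIs and 2607 were ranked. The other 2346 ranked spots of the same section were the comparison. The 4 selecting genes were left out of the folds, lists and counts below, and their own values are given only as a description. All 4 sections of the series together held 10383 spots.

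In a scarred kidney, fibroblasts and the contractile myofibroblasts that arise from stromal cells lay down collagen and other matrix between the tubules. Mechanical load and TGF-beta act on these cells through the serum response factor (SRF) and YAP/TEAD programmes, which drive genes of the actin cytoskeleton and of the matrix. Lumican (Lum) is a small proteoglycan that binds collagen fibrils. Periostin (Postn) and tenascin C (Tnc) are matricellular proteins, which signal to cells from within the matrix, and Ltbp2 is a microfibril protein of the latent TGF-beta binding protein family. Puromycin aminonucleoside is a toxin of podocytes, the filtering cells of the glomerulus.

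The animals were Sprague-Dawley rats, and each group was represented by 1 frozen section of 10 µm. The group PAN was injected, fed without restriction and examined 5 months after the injection, 6 weeks past the treatment period. The group PAN_LS-FMD matched it in injection and timing, and received 6 rounds of a diet that mimics fasting and is low in salt. Untreated rats formed the group healthy. In the group healthy_LS-FMD uninjected rats had 1 round of that diet and were then refed for 72 h. Because no group had a replicate section, no test across animals was possible and no p-value is given. Differences were called by size alone, at 1.5-fold or more, and each fold has an exact 95% interval of 2 Poisson counts that covers counting error only. PCR, the capture step and the spread between animals lie outside these intervals. The healthy matrix was made with another version of the counting software than the other 3, so differences from that section carry the version with them.

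The niche held 2235055 UMIs and the other PAN spots 22429796. Depth was close in both sets, with a median of 8373 UMIs per spot in the niche and 8739 in the others, and medians of 3439 and 3529.5 detected genes. Mitochondrially encoded transcripts made up 2.51% of the UMIs in the niche and 3.08% in the others. Haemoglobin transcripts made up 0.0899% and 0.0928%, and ribosomal protein genes 7.59% and 6.49%. Levels are pooled UMIs per 1000000 UMIs (CPM). As a spot mixes cells, a higher share of a cell type and more RNA per cell of that type cannot be told apart in any of these values.

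The values that chose the niche are given as a description. Niche spots held between 764 and 3066 CPM of the 4 genes together, with a median of 1062, and the other spots had a median of 230. The last spot inside the niche had 9 such UMIs of 11775 in all, or 764 CPM. The first spot outside had 5 of 6571, or 761 CPM. The boundary was therefore a point on a continuum of small counts, and 351 of the other spots had no UMI of these genes. Ltbp2 supplied 74.7% of the selecting UMIs in the niche, Tnc 12.0%, Lum 8.23% and Postn 5.11%. All 4 genes were seen together in 29 niche spots, 3 of them in 80, and 1 alone in 49. When each gene was left out of the ranking in turn, the top 10% ranked on the other 3 genes held more of the omitted gene, by 4.13-fold (3.37 to 5.04) for Lum, 6.39-fold (5.05 to 8.06) for Postn, 3.29-fold (2.83 to 3.81) for Tnc and 2.29-fold (2.15 to 2.44) for Ltbp2. The niche kept 85.8% to 96.2% of its spots without Lum, Postn or Tnc, and 52.9% without Ltbp2.

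Of 8834 genes with at least 200 UMIs over the ranked PAN spots, 540 (6.11%) were at least 1.5-fold higher in the niche and 630 (7.13%) at least 1.5-fold lower. The median log2 fold over all of these genes was 0.04. The highest folds belonged to Car3, a carbonic anhydrase of muscle and fat, and to Cnn1 (calponin), Ankrd1 and Actg2, which are genes of smooth muscle or of stretched muscle. Injury, growth arrest and matrix genes such as Cdkn2b, Vcan and Sulf1 were also among the highest. Several tubule genes were lower, with Umod, Kap, Lrp2 and Aqp2 at 0.299 to 0.591 of their level in the other spots. Of 56 gene lists covering cell types and pathways, 14 had a median fold of at least 1.5. With every spot thinned to 3000 UMIs before ranking, 6353 genes were measured and 63.2% of the niche spots were kept; 175 genes were then called higher, 279 lower and 3 lists. Thinning changed the depth, the membership and the measured genes together.

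**Figure D1:**
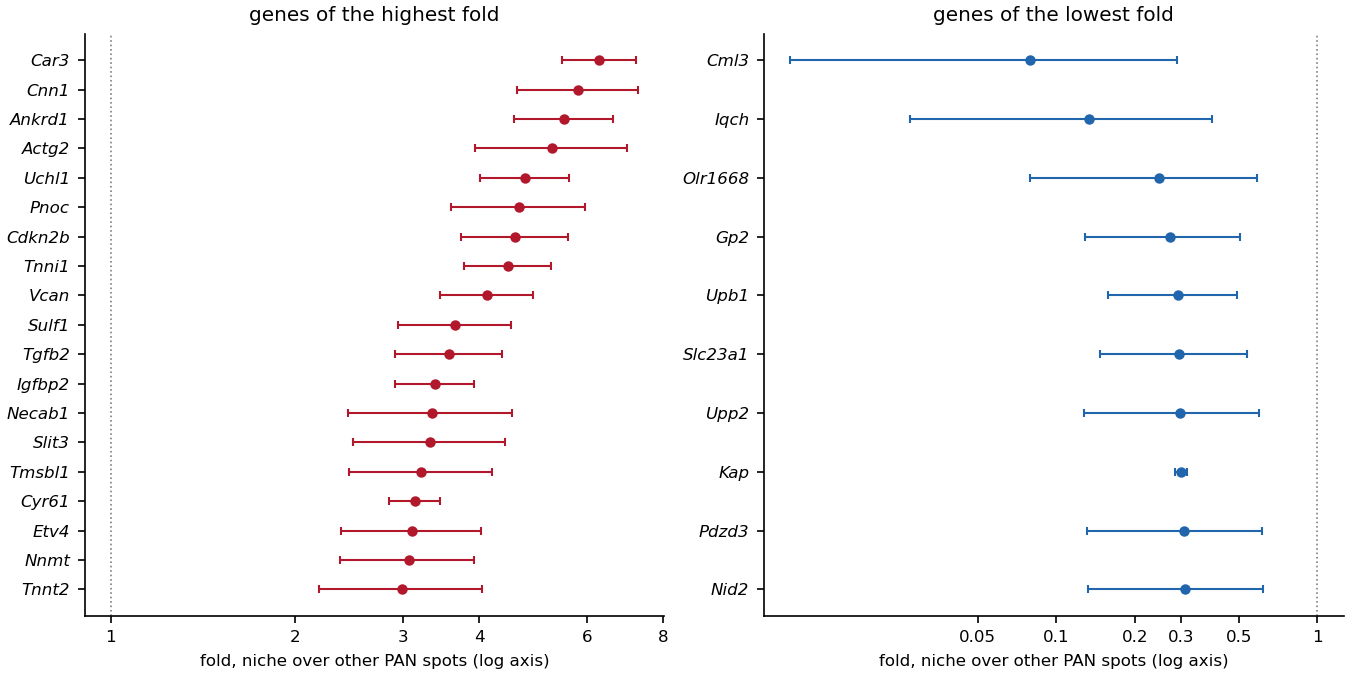
Folds of 19 genes with high and 10 with low folds between the 261 niche spots and the 2346 other PAN spots, on log axes; points are ratios of pooled CPM and bars are exact 95% intervals that cover counting error only. The highest point is Car3 at 6.28-fold, and the widest bar of the lower set belongs to Cml3 at 0.0793-fold, with 2 UMIs in the niche.

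Car3 stood at 149 CPM in the niche and 23.8 CPM in the other PAN spots, 6.28-fold (95% interval 5.46 to 7.21). Over single spots the lowest, median and highest Car3 levels were 0, 90.6 and 1345 CPM in the niche and 0, 0 and 440.2 CPM in the other spots. At least 1 Car3 UMI was found in 138 niche spots (52.9%) and in 408 other spots (17.4%), so the sets overlapped. With every spot thinned to 3000 UMIs the shares with Car3 were 33.0% and 6.52%. Car3 is also an adipocyte marker, and that list, Car3 included, summed to 1.61-fold (95% interval 1.51 to 1.72). Of its 5 measured members, Cfd (adipsin) was higher at 1.63-fold, Cidec was lower at 0.616-fold, Fabp4 stood at 0.745-fold and Lpl at 1.25-fold.

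Genes known as targets of YAP and TEAD were higher in part. Of 11 measured members of that list, 6 were at least 1.5-fold higher and none lower, with a median log2 fold of 0.93. The summed level of the list was 2477 against 1236 CPM, and 157 of the 261 niche spots lay above the 90th percentile of the other spots. Ankrd1, a muscle ankyrin repeat protein induced by stretch, stood at 79.2 CPM in the niche and 14.4 CPM in the other PAN spots, 5.50-fold (95% interval 4.55 to 6.63). Cyr61 (CCN1), a matricellular protein and a classic YAP target, reached 252 CPM in the niche and 80.2 CPM in the other PAN spots, 3.14-fold (95% interval 2.85 to 3.45). Its relative Ctgf (CCN2), a profibrotic growth factor, was at 1072 against 427 CPM, 2.51-fold (95% interval 2.40 to 2.63). The receptor tyrosine kinase gene Axl, at 1.93-fold, and Amotl2, an inhibitor of YAP, at 1.90-fold, completed the called members together with Tgfb2. Values of the members that were not called included 1.35-fold for Ajuba and 1.34-fold for the kinase gene Lats2.

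The promoters of the 19 plotted genes of high fold were read because these genes were high in the same set of spots. RefSeq promoters on the build GRCr8, from 250 bases before to 50 bases after the annotated start, were matched for 12 of the 19. No entry was matched for Car3, Ankrd1, Pnoc, Sulf1, Necab1, Etv4 and Nnmt. The TEAD core GGAATG, searched on both strands (the other strand reads CATTCC), was found in 2 of the 12, against 14.2% of all 33469 promoters of that length. TGANTCA, a pattern with any middle base that is looser than the AP-1 consensus, was found in 1 of the 12 against 7.33% of all. That match read TGATTCA, so it is not called an AP-1 site here. The CArG box of SRF was found in none of the 12 against 1.64%. No promoter of the 12 held more than 1 of these motifs. The 3 promoters that held a match are shown 5′ to 3′ along the gene's strand, with the match in capitals. They are those of Cyr61 (chr2:237225640-237225939, minus strand, match starting 113 bases before the start), Tnnt2 (chr13:49818873-49819172, plus strand, 83 bases before) and Actg2 (chr4:117593990-117594289, minus strand, 222 bases before).
Cyr61: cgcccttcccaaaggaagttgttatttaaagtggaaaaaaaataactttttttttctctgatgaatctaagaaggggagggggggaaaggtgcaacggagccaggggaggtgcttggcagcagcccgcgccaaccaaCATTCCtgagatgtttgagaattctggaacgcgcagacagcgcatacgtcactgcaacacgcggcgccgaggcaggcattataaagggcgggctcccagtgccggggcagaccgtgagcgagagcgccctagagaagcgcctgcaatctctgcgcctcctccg
Tnnt2: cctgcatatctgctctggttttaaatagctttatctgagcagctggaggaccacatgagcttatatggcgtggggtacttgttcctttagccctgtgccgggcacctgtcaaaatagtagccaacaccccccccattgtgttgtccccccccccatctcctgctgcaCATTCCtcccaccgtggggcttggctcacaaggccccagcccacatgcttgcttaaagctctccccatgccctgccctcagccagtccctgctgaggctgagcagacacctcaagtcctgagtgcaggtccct
Actg2: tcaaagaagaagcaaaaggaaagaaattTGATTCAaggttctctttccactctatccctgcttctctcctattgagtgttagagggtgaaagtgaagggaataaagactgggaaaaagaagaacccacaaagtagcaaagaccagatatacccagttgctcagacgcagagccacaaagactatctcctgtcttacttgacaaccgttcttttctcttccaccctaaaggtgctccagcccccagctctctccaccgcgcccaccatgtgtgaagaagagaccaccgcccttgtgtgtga
A match of letters is a description of the window and does not show that a factor bound there.

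The actin cytoskeleton was higher across most of its list. In the list of SRF and cytoskeleton genes 13 of 19 measured members were at least 1.5-fold higher and none lower (median log2 fold 0.79). Its summed level was 16014 against 9969 CPM, and 157 niche spots lay above the 90th percentile of the other spots, with none below the 10th. Tropomyosin 1 (Tpm1) stood at 1580.3 CPM in the niche and 641 CPM in the other PAN spots, 2.47-fold (95% interval 2.38 to 2.56). Vimentin (Vim), an intermediate filament of mesenchymal and injured cells, was at 799 against 353 CPM, 2.26-fold (95% interval 2.15 to 2.38). Actinin 1 (Actn1) was at 2.09-fold and filamin A (Flna) at 1.94-fold. The smooth muscle actin gene Acta2, the usual marker of myofibroblasts, was at 139.6 against 53.9 CPM, 2.59-fold (95% interval 2.28 to 2.94), and at 1.84-fold without the 5 niche spots richest in it. Here and below, leaving out the richest spots of the niche alone lowers a fold by construction.

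Smooth muscle genes proper were higher in fewer spots. Of 6 measured arterial smooth muscle markers 4 were called higher, among them Cnn1 at 5.80-fold (95% interval 4.60 to 7.27), Actg2 at 5.26-fold (95% interval 3.94 to 6.97) and the smooth muscle myosin Myh11 at 2.97-fold (95% interval 2.48 to 3.53). Cnn1 had UMIs in 71 niche spots (27.2%) and in 158 other spots (6.73%), and Actg2 in 26 niche spots (9.96%) and in 81 other spots (3.45%). Actg2 therefore rested on few spots, and its fold was 2.17 without its 5 richest niche spots, with all other spots kept. In the niche, 41 spots lay above the 90th percentile of the other spots for the summed smooth muscle list. When niche and other spots rich in these genes were left out, 220 and 2111 spots remained. Cnn1 then stood at 5.09 (3.73 to 6.88), Actg2 at 2.92 (1.57 to 5.14) and Myh11 at 1.91 (1.40 to 2.56). Car3 under the same omission was at 6.73 (5.80 to 7.81), but unlike Cnn1, Actg2 and Myh11 it is not on the list that chose the spots to omit.

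Matrix genes were higher by smaller folds. Among fibrillar collagens 4 of 5 measured members were called: Col11a1 at 1.91-fold (95% interval 1.63 to 2.24), Col5a3 at 1.84-fold (95% interval 1.28 to 2.59), Col1a1 at 1.69-fold (95% interval 1.59 to 1.79) and Col1a2 at 1.63-fold (95% interval 1.37 to 1.93). The remaining one, Col3a1, was at 1.42-fold (95% interval 1.35 to 1.49). Over single spots the lowest, median and highest Col1a1 levels were 0, 547 and 1954 CPM in the niche and 0, 346 and 2380.4 CPM in the other spots, so the ranges of both sets covered each other. Among other interstitial collagens 4 of 9 were called, led by Col8a1 at 2.97-fold (95% interval 2.31 to 3.78), a short-chain collagen of activated smooth muscle and fibroblasts, and Col6a2 at 1.72-fold (95% interval 1.62 to 1.84). Fibronectin (Fn1), the scaffold on which collagen is assembled, was at 1243 CPM in the niche and 652 CPM in the other PAN spots, 1.91-fold (95% interval 1.83 to 1.99). Every niche spot held Fn1, with lowest, median and highest levels of 144, 1138 and 3867 CPM in the niche and 0, 606 and 3564 CPM in the other spots.

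Matricellular genes gave 10 calls among 15 measured members (median log2 fold 0.93). Apart from Cyr61 and Ctgf these included Nov (CCN3) at 2.57-fold, Wisp1 (CCN4) at 2.46-fold, Thbs2 (thrombospondin 2) at 2.43-fold and Sparc, a collagen-binding protein, at 1.99-fold (95% interval 1.92 to 2.05). Spp1 (osteopontin), which belongs to the same list, was not called: it stood at 20511 CPM in the niche and 16867 CPM in the other PAN spots, 1.22-fold (95% interval 1.20 to 1.23), and every one of the 2607 ranked spots held it. Versican (Vcan), a large proteoglycan of provisional matrix, had the highest fold among proteoglycans, 4.12-fold (95% interval 3.46 to 4.90), with 83.2 against 20.2 CPM. The small proteoglycans Prelp, Bgn (biglycan) and Dcn (decorin) were at 1.81-fold, 1.71-fold and 1.59-fold, 3 of 5 measured, and Podn at 0.847-fold was not called.

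Enzymes that mature and remodel collagen followed. Of 17 measured processing and crosslinking genes 7 were higher and none lower, and 156 niche spots lay above the 90th percentile of the other spots for their sum, 6279.9 against 3957 CPM. Plod2, the lysyl hydroxylase that sets the stable crosslinks of scar collagen, was at 292 against 129 CPM, 2.26-fold (95% interval 2.07 to 2.46). Lysyl oxidase (Lox) was at 2.11-fold (95% interval 1.86 to 2.38), its relative Loxl1 at 1.94-fold (95% interval 1.84 to 2.03) and the collagen chaperone Fkbp10 at 2.06-fold (95% interval 1.76 to 2.40). Among proteases and their inhibitors 8 of 14 were higher. The matrix protease gene Adamts12 was at 1.93-fold (95% interval 1.53 to 2.42). The gelatinase gene Mmp2 was at 1.82-fold, and the inhibitor genes Timp2 and Timp1 at 1.80-fold and 1.69-fold.

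Elastic fibre genes gave 5 calls of 13, with fibulin 1 (Fbln1) at 2.53-fold (95% interval 2.18 to 2.92) and fibrillin 1 (Fbn1) at 1.89-fold (95% interval 1.77 to 2.01). Elastin itself (Eln) was at 1.23-fold and fibulin 5 (Fbln5) at 0.832-fold. Integrins, the receptors that tie cells to matrix, gave 4 of 10, and Itga8, Itga5, Itga7 and Itga11 were the called ones at 2.49-fold, 1.86-fold, 1.64-fold and 1.58-fold. Without their 5 richest niche spots Itga7 and Itga11 were at 1.23-fold and 1.25-fold, and against the other spots of 3 expression clusters alone (described with the regions of the niche) Itga11 was at a log2 fold of -0.0095. Basement membrane genes gave 2 higher (Lama1 at 1.73-fold and Lamc1 at 1.53-fold) and 1 lower (Nid2 at 0.310-fold (95% interval 0.132 to 0.620), from 8 UMIs) of 14. Over all measured genes 6.11% were called higher and 7.13% lower. The elastic fibre and integrin counts lay well above the share called higher. The basement membrane counts rest on few genes, and the 1 lower call of 14 was at about the share called lower.

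**Figure D2:**
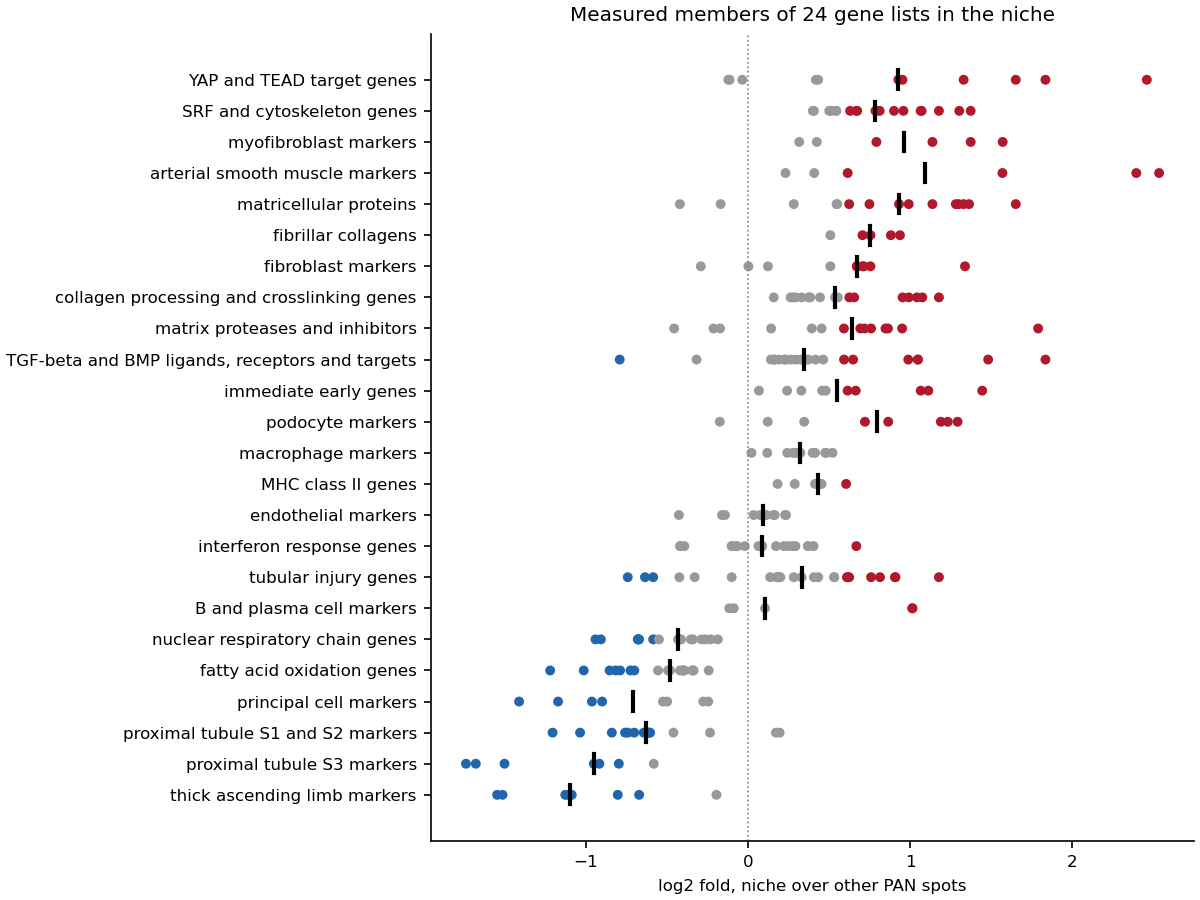
Log2 folds between niche and other PAN spots for the measured members of 24 gene lists; each point is a gene, red at least 1.5-fold higher, blue at least 1.5-fold lower, grey neither, and the black bar is the median of the list. Cytoskeleton and matrix lists lie right of 0 and tubule lists left of it, with the thick ascending limb median at -1.10.

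Stromal cell markers matched the matrix genes in direction. Fibroblast markers gave 6 of 10 called higher (median log2 fold 0.67), led by Fbln1, and the universal fibroblast gene Pi16 was at 1.59-fold. Dpt at 0.817-fold and Gsn at 1.09-fold were not called. Of 6 measured myofibroblast markers 4 were called: Col8a1, Acta2, Cthrc1 at 2.20-fold (95% interval 1.76 to 2.73) and transgelin (Tagln) at 1.73-fold (95% interval 1.64 to 1.83). Pericyte and mesangial markers gave 4 of 7, among them Itga8 and Cspg4 (NG2) at 2.26-fold, whereas Pdgfrb was at 1.14-fold (95% interval 1.02 to 1.26). Over the section as a whole, the niche thus had higher levels of many matrix and contractile genes that its label implies. Within the expression cluster led by Car3, which held 51.3% of the niche (see the regions below), contractile lists hardly differed. Sums were 1222 against 1211 CPM for myofibroblast, 346 against 347 for arterial smooth muscle and 458 against 454 for pericyte and mesangial markers. All of these sums were higher in the niche spots of the Actg2 and Serpine2 clusters and of the pooled remainder. In the Pnoc cluster the pericyte and mesangial sum was lower and the others higher. Tendon and bone regulators of matrix, Scx at 2.48-fold (95% interval 1.86 to 3.27) and Runx2 at 1.95-fold (95% interval 1.51 to 2.49), were among 3 of 13 called transcription regulators and related genes. The other 10 were not called, and 6.11% of all measured genes were called higher. That list had a median log2 fold of 0.17, and its sum was lower in the niche, at 0.931-fold (0.889 to 0.974).

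Growth factor genes were called higher more often than the background of 6.11%. In the TGF-beta and BMP list 7 of 22 measured members were higher and 1 lower. All 3 TGF-beta ligand genes were called: Tgfb2 at 3.57-fold (95% interval 2.91 to 4.35), Tgfb3 at 2.79-fold (95% interval 2.21 to 3.50) and Tgfb1 at 1.98-fold (95% interval 1.80 to 2.19). Tgfb1 was at 219 CPM in the niche and 111 CPM in the other PAN spots, with UMIs in 208 niche spots (79.7%) and in 1441 other spots (61.4%). Fstl3, a secreted inhibitor of activins, was at 2.07-fold and Fstl1 at 2.07-fold, while the BMP inhibitor Grem1 was lower at 0.578-fold (95% interval 0.377 to 0.852). Of 22 genes of the PDGF, FGF, EGF and insulin-like growth factor families 9 were higher and 1 lower, with Igfbp2 at 3.38-fold (95% interval 2.91 to 3.92) and Pdgfa at 1.98-fold (95% interval 1.32 to 2.89). Hgf, a growth factor for tubule cells, was the lower one at 0.664-fold (95% interval 0.542 to 0.806). In each list the 1 lower call of 22 was not above the background of 7.13%. Wnt antagonists were among 4 of 11 called Wnt and Hedgehog genes: Dkk2 at 1.96-fold, Sfrp2 at 1.95-fold and Dkk3 at 1.83-fold, beside the ligand gene Wnt7b at 1.82-fold.

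Of 13 measured genes of cell cycle arrest and senescence 4 were higher and 1 lower (median log2 fold 0.19), and of 10 immediate early genes 5 were higher and none lower. Cdkn2b (p15), an inhibitor of the cell cycle induced by TGF-beta, was at 64.9 CPM in the niche and 14.2 CPM in the other PAN spots, 4.58-fold (95% interval 3.73 to 5.59), with UMIs in 99 niche spots (37.9%) and in 281 other spots (12.0%). Cdkn1a (p21) was at 1.88-fold (95% interval 1.59 to 2.20). Proliferation genes gave 1 call of 11, Mki67 at 1.51-fold (95% interval 1.09 to 2.07), whose interval reached well below the 1.5-fold threshold. That count was near the share of 6.11% called higher over all genes. Dusp1, a phosphatase that ends MAP kinase signals, was at 2.72-fold (95% interval 2.43 to 3.04), and Egr1 and Egr2, early response factors, were at 2.09-fold (95% interval 1.85 to 2.37) and 2.16-fold (95% interval 1.65 to 2.79).

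Tubular injury genes were mixed. Of 25 measured, 8 were higher and 3 lower, beside 6.11% and 7.13% of all measured genes. Their sum was at 1.25-fold (1.24 to 1.26) over the section as a whole. Within the expression clusters described below, it was lower in the niche spots of the Car3 (31824 against 36184 CPM), Actg2 (20786 against 20828 CPM) and Pnoc (19495 against 22206 CPM) clusters. In the Serpine2 cluster and the pooled remainder it was higher. Lcn2 (NGAL), an injury protein of the distal nephron, was at 386 CPM in the niche and 206 CPM in the other PAN spots, 1.87-fold (95% interval 1.74 to 2.02). Havcr1 (KIM-1), the injury marker of the proximal tubule, was at 248 against 216 CPM, 1.15-fold (95% interval 1.05 to 1.25), and was not called. The keratin gene Krt18 was lower at 0.644-fold (95% interval 0.472 to 0.860), but stood at a log2 fold of 0.0724 when every spot was thinned to 3000 UMIs.

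Few immune genes were called, and most of the counts here did not stand out from the 6.11% called higher over all measured genes. Over the section as a whole, summed lists were at 1.26-fold (1.23 to 1.30) for macrophage markers and 1.27-fold (1.26 to 1.29) for MHC class II genes. Within the expression clusters described below, the macrophage sum was lower in the niche spots of the Car3 cluster (3132 against 3527 CPM) and the Actg2 cluster (4150 against 4450 CPM). It was higher in those of the other sets. The MHC class II sum was lower in the Actg2 cluster alone, at 11698.5 against 12123.5 CPM. The sums for T and NK cell markers and for B and plasma cell markers were at 1.09-fold (1.00 to 1.19) and 0.949-fold (0.922 to 0.976). None of 14 measured macrophage markers reached 1.5-fold in either direction, and their median log2 fold was 0.32; the mannose receptor gene Mrc1 was at 1.44-fold (95% interval 1.20 to 1.71), complement C1qb at 1.39-fold (95% interval 1.30 to 1.48) and Cd68 at 1.24-fold (95% interval 1.06 to 1.43). Among MHC class II genes 1 of 6 was called, the regulator Ciita at 1.52-fold (95% interval 1.20 to 1.91), and the invariant chain gene Cd74 was at 1.22-fold (95% interval 1.20 to 1.25). No T and NK cell marker of 8 was called. The B cell receptor gene Cd79b at 2.02-fold (95% interval 1.66 to 2.44) was called, and stood at a log2 fold of -0.03 against the other spots of 3 expression clusters, whereas the immunoglobulin genes Ighm at 0.923-fold (95% interval 0.890 to 0.956) and Igkc at 0.941-fold (95% interval 0.894 to 0.989) were not. Of 9 neutrophil markers found in the files none had enough UMIs to be measured. Interferon response genes gave 1 call of 20, Gbp2 at 1.59-fold (95% interval 1.35 to 1.86).

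Of 20 measured chemokine and cytokine genes 3 were higher, 3 lower and 14 neither (median log2 fold 0.13), beside 6.11% and 7.13% of all measured genes. The called ones are named here. Ccl2, which attracts monocytes, was at 81.4 against 35.3 CPM, 2.31-fold (95% interval 1.95 to 2.71). The lymphoid chemokines Ccl19 and Ccl21, which guide T cells and dendritic cells, were at 1.89-fold and 1.54-fold. Cxcl12 was lower at 0.572-fold (95% interval 0.501 to 0.650), as were Cxcl11 at 0.487-fold and Ccl3 at 0.531-fold, the last 2 from 20 and 12 UMIs in the niche. Lymphatic endothelial markers were all called, 4 of 4 measured, with podoplanin (Pdpn, also made by podocytes and fibroblasts) at 2.91-fold (95% interval 2.41 to 3.49) and the receptor gene Lyve1 at 1.75-fold (95% interval 1.31 to 2.32). Against the other spots of 3 expression clusters Mmrn1 of that list was at a log2 fold of -0.27 and Ccl21 at -0.14. Blood endothelial markers gave no call among 10, with Plvap, a gene of fenestrated capillaries, at 0.744-fold (95% interval 0.661 to 0.835). Complement genes gave 3 higher, led by C6 at 2.21-fold (95% interval 1.73 to 2.81), and 1 lower of 15. The 1 lower call was not above the share of 7.13% over all genes.

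Genes of healthy tubules were lower in most of the segment lists. In the thick ascending limb list 7 of 8 measured members were at least 1.5-fold lower (median log2 fold -1.10). Uromodulin (Umod), its most specific product, stood at 2543 CPM in the niche and 5480.4 CPM in the other PAN spots, 0.464-fold (95% interval 0.452 to 0.476). Spots varied widely, with lowest, median and highest Umod levels of 423, 2068 and 16989 CPM in the niche and 249, 3658 and 53058 CPM in the other spots. The salt transporter gene Slc12a1 was at 188 against 538 CPM, 0.350-fold (95% interval 0.317 to 0.386). Markers of the straight proximal tubule (S3) gave 6 of 7 lower: Kap, an androgen-controlled secreted protein of rodent kidney, was at 658 CPM in the niche and 2198 CPM in the other PAN spots, 0.299-fold (95% interval 0.284 to 0.315), and the transporter gene Slc7a13 at 0.312-fold (95% interval 0.268 to 0.361). The S1 and S2 segments gave 10 of 14 lower. The scavenger receptor gene Lrp2 (megalin) was at 598 CPM in the niche and 1012 CPM in the other PAN spots, 0.591-fold (95% interval 0.559 to 0.625), the phosphate transporter gene Slc34a1 at 0.615-fold (95% interval 0.592 to 0.638) and Miox at 0.434-fold (95% interval 0.392 to 0.478).

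Collecting duct genes were lower by similar folds. Of 8 principal cell markers 4 were called, with the water channel genes Aqp2 at 0.513-fold (95% interval 0.457 to 0.574) and Aqp3 at 0.376-fold (95% interval 0.268 to 0.513). Of 7 intercalated cell markers 3 were called, with the anion exchanger gene Slc4a1 at 0.444-fold (95% interval 0.366 to 0.534). None of the 3 measured distal convoluted and connecting tubule markers was called, and the salt transporter gene Slc12a3 was at 1.11-fold (95% interval 0.987 to 1.25).

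Energy metabolism genes ran with the tubule markers over the section as a whole, where 7.13% of all measured genes were called lower. Fatty acid oxidation genes were lower in 7 of 19 (Cyp4a2 at 0.553-fold (95% interval 0.539 to 0.568), Fabp3 at 0.495-fold (95% interval 0.426 to 0.573)) and higher in none. Within the Car3 cluster (described below) their sum hardly differed, at 4442 CPM in the niche spots and 4454 CPM in the others. In the other clusters read alone and the pooled remainder it was lower in the niche spots, with 6427 against 8304 CPM in the remainder. Nuclear genes of the respiratory chain were lower in 7 of 18, with cytochrome c (Cycs) at 697 against 1308 CPM, 0.533-fold (95% interval 0.506 to 0.561), and 129 niche spots lay below the 10th percentile of the other spots for their sum. The 9 measured mitochondrially encoded genes gave no call; Mt-co1 was at 0.815-fold (95% interval 0.799 to 0.831). Of 12 hypoxia genes 3 were lower, among them Ndrg1 at 0.609-fold (95% interval 0.586 to 0.633), and none higher. The 10 lowest folds of all included several from very few UMIs, such as Cml3 with 2 UMIs in the niche against 253 in the other spots, 0.0793-fold (0.00956 to 0.29).

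Over the section as a whole, podocyte markers were higher in the niche on the strength of few spots. Of 8 measured, 5 were called, among them Clic3 at 2.45-fold, Nphs1 (nephrin) at 2.35-fold (95% interval 1.65 to 3.28), Cdkn1c at 1.82-fold and Ptpro at 1.65-fold. Nephrin UMIs were present in 28 niche spots (10.7%) and in 126 other spots (5.37%), and its fold was 1.37 without the 5 richest niche spots. Within each expression cluster read alone below, and in the pooled remainder, the summed list was lower in the niche spots. It was at 210 against 232 CPM in the Car3 cluster and 2829 against 3327 CPM in the Pnoc cluster. The smallest difference was in the Actg2 cluster, at 353 against 356 CPM. In 41 niche spots the summed list lay above the 90th percentile of the other spots. Without the niche and other spots above that level the folds were 1.66 (0.849 to 2.99) for Nphs1 and 1.09 (0.526 to 2.02) for Clic3, while Car3 was at 6.70 (5.80 to 7.74) and Pnoc at 4.19 (2.95 to 5.87). Nphs1 and Clic3 are on the list that chose the spots to omit, and Car3 and Pnoc are not, so these folds are not like for like. Pnoc (prepronociceptin, an opioid-related peptide gene) was among the highest genes at 4.65-fold (95% interval 3.60 to 5.96), and at 2.98-fold without its 5 richest niche spots.

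The niche spots fell into several expression clusters. The 2607 spots were clustered by their counts without the selecting genes; each cluster is called a region here and named by its leading genes, and the positions of the spots on the slide were not used. A region led by Car3, Ankrd1, Tgfb2, Uchl1, Tnni1 and Cdkn2b had 194 spots, of which 134 were niche spots. It held 51.3% of the niche, and 69.1% of its own spots were in the niche. A region led by Actg2 and Myh11, with Ccl19, Cd79b and Ccl21 among its 10 leading genes, had 209 spots and 47 niche spots (18.0% of the niche). A region led by Serpine2 and Pla2g2a had 330 spots and 31 niche spots (11.9%). A small region with Pnoc, Igfbp2 and the podocyte genes Ptpro and Podxl among its leading genes had 28 spots, of which 11 (39.3%) were in the niche. The other regions shared the remaining 38 niche spots. The division depended on the resolution of the clustering. At a resolution of 0.5 a single cluster led by Car3 and Uchl1 held 72.4% of the niche, and 34.0% of its 556 spots were niche spots. At a resolution of 2 the cluster led by Actg2 and Myh11 had 49 spots with 10 niche spots, and another led by Il16 and Ccl21 had 239 spots with 54 niche spots. These clusters were made from the same counts, so their leading genes are a description.

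Levels differed between the niche spots of the 4 regions. Contractile genes were at their highest in the Actg2 region: Actg2 there was at 158 CPM in the niche spots and 69.4 CPM in the other spots, and in the Car3 region at 6.62 CPM in the niche spots and 17.1 CPM in the other spots. Myh11 was at 302 CPM in the niche spots of the Actg2 region and 26.5 CPM in those of the Car3 region. Cnn1 was less uneven, at 112 and 46.4 CPM in the same order. Ccl21 in the Actg2 region was at 3193 CPM in the niche spots and 4001 CPM in the other spots, so there the niche spots were the lower ones. Pnoc in the region it led was at 415 CPM in the niche spots and 326 CPM in the other spots, and at 29.8 CPM in the niche spots of the Car3 region. Lum supplied 20.2% of the selecting UMIs in the Actg2 region against 6.16% in the Car3 region, 3.08% in the Serpine2 region and 5.21% in the Pnoc region.

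Within the Car3 region the niche spots had more Car3 than the others (214 against 133 CPM, a fold of 1.61 (1.23 to 2.13)). Uchl1, a ubiquitin hydrolase of neurons, was likewise at 122 against 64.6 CPM (1.89 (1.29 to 2.82)). Col1a1 differed less, by a fold of 1.08 (0.946 to 1.23), and so did Col3a1, by 1.07 (0.953 to 1.20), both with intervals that included 1. Spp1 was lower in the niche spots of this region, 23174 against 27561 CPM. In the Serpine2 region the fold was 3.31 (2.05 to 5.19) for Car3, 2.46 (1.25 to 4.55) for Uchl1 and 1.10 (0.906 to 1.33) for Col1a1.

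The tubule genes Umod, Lrp2 and Kap differed less in the Car3 region than over the whole section. In the Car3 region Umod was at 1877 against 2096 CPM (0.895 (0.833 to 0.963)), Lrp2 at 560.5 against 679.7 CPM (0.825 (0.724 to 0.940)) and Kap at 432 against 389 CPM (1.11 (0.943 to 1.31)). Of the other sets, the summed S3 list was at 3560.5 against 4232 CPM in the Serpine2 region and 3345 against 5334 CPM in the pooled remainder. The summed thick ascending limb list was at 2563 against 3279 CPM in the Actg2 region and 5158 against 7434 CPM in the remainder, and was higher in the niche spots of the Pnoc region, at 3393 against 2814 CPM.

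When all 261 niche spots were set against the 521 other spots of the Car3, Actg2 and Serpine2 regions alone, 201 genes were at least 1.5-fold higher and 353 lower. The niche spots of the Pnoc region and of the remainder, 11 and 38, have no spots of their own regions in that comparison. The S1 and S2 list then had a median log2 fold of 0.22 and the principal cell list one of 0.0037. Within the sets, the summed S1 and S2 list was lower in the niche spots in all 5, from 4976 against 5209.6 CPM in the Car3 region to 6427 against 8469.9 CPM in the remainder. The summed principal cell list was lower in 4 of 5 and higher in the Car3 region, at 343 against 313 CPM. Against the 521 spots Cd79b was at a log2 fold of -0.03 and Ccl21 at -0.14.

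**Figure D3:**
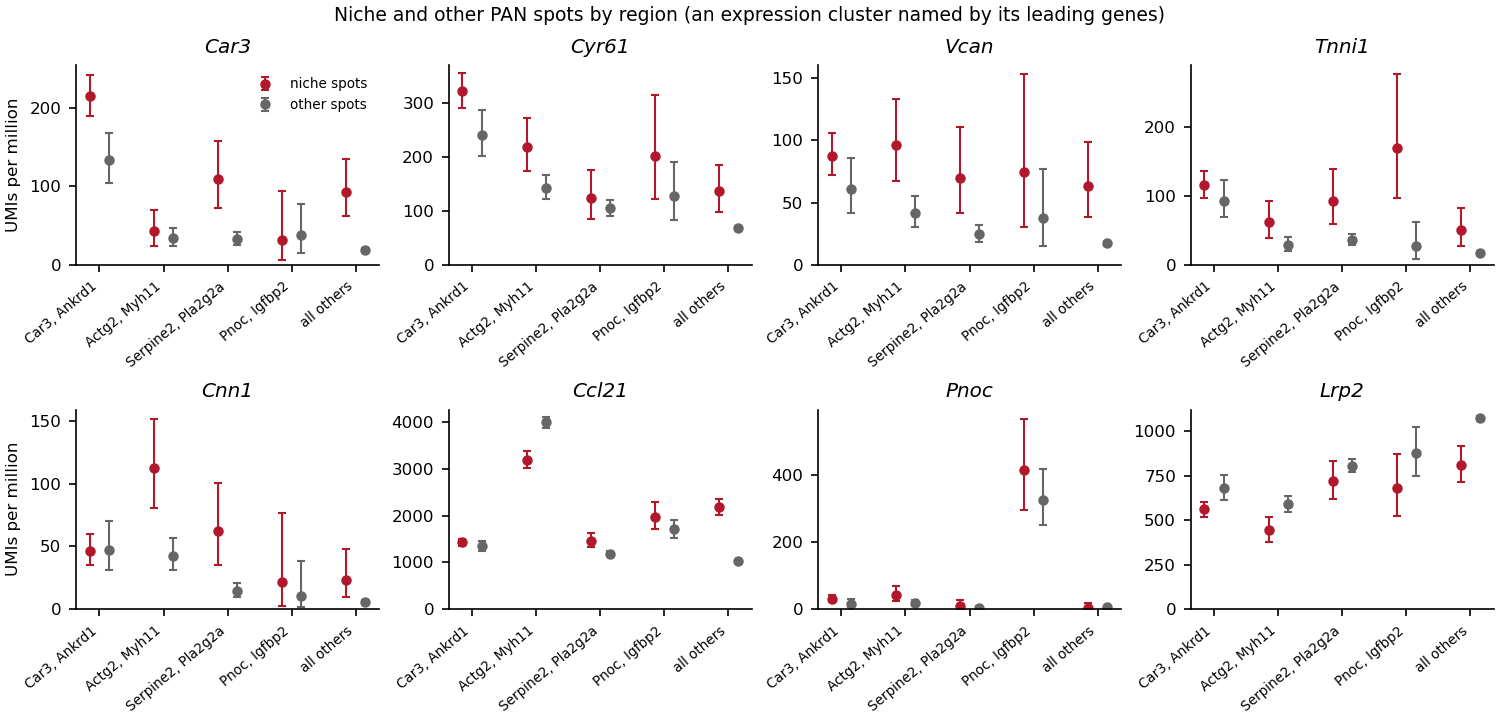
Levels of 8 genes in CPM in the niche spots (red) and other PAN spots (grey) of 4 regions and the remainder, with exact 95% Poisson intervals that cover counting error only. Vcan was higher in the niche spots of all 5 sets, Cnn1 was highest in the niche spots of the Actg2 region, and Pnoc was seen at high levels in 1 region.

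Along the ranking the genes fell into distinct courses. Over the first 2.5% of spots, the next 2.5%, 5 to 10%, 10 to 20%, 20 to 50% and 50 to 100%, Car3 was at 188, 162, 121, 60.2, 28.1 and 14.8 CPM. Ankrd1 was at 125, 84.6, 51.3, 28.8, 14.7 and 11.6 CPM over the same bins and Cyr61 at 352, 259, 193, 129, 92.4 and 64.4 CPM. These genes declined at each step from the top of the ranking. Col1a1, at 778, 625, 549, 495, 397 and 336 CPM, and Fn1, at 1615, 1282, 1019, 892, 667 and 600.4 CPM, declined over a smaller range. Spp1 was at 19258, 21013, 20923, 19250.0, 18473 and 15521 CPM, so its highest bin lay below the top of the ranking. Ighm was at 1620.1, 1027, 1664, 1646, 1624 and 1598 CPM, with 1 low bin and no steady course.

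Tubule genes climbed as the rank fell. Umod was at 2212, 2454, 2771, 3723, 4563 and 6320.3 CPM, and Lrp2 at 484, 521, 702, 847, 978 and 1061 CPM. Kap was at 489, 730.1, 711, 1029, 1530.4 and 2789 CPM, with a small dip at 5 to 10%. The summed fatty acid oxidation list was at 4114, 4862, 4996, 6317, 7508 and 8182 CPM. Nephrin (Nphs1) had no steady course, with 13.7, 15.5, 25.2, 13.5, 12.4 and 5.15 CPM, and its highest bin was the one from 5 to 10%.

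**Figure D4:**
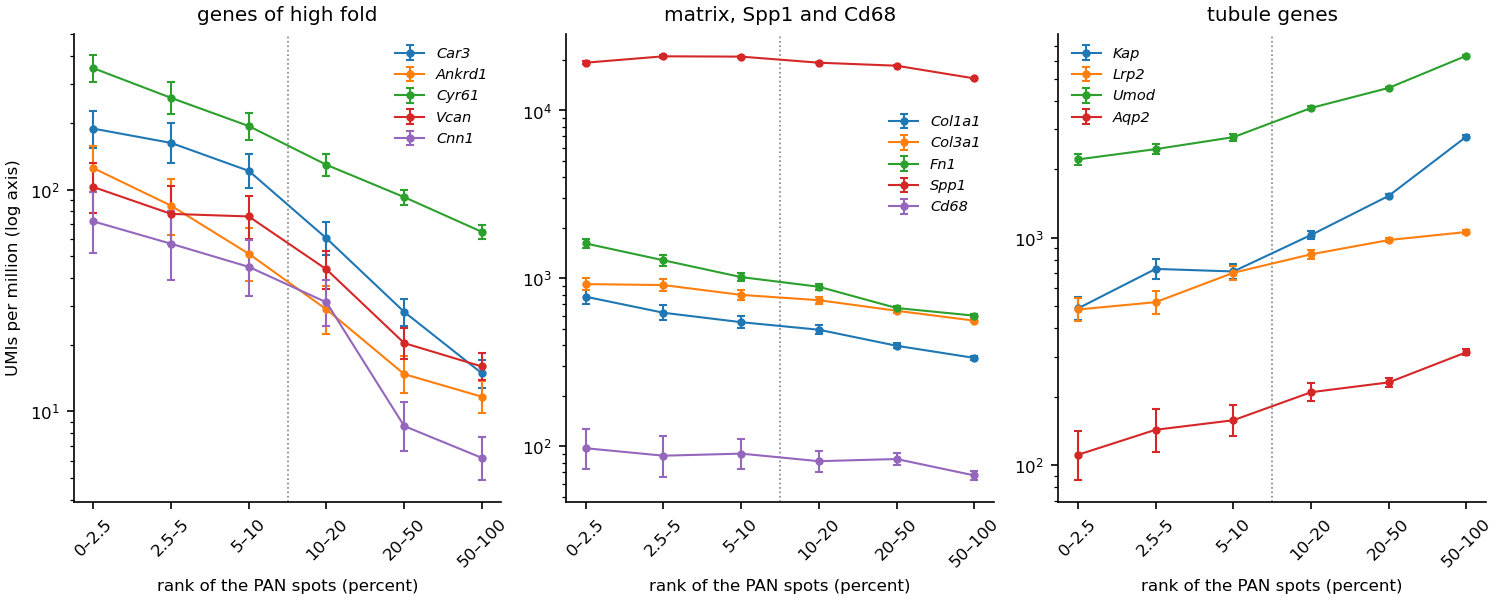
Pooled levels in CPM (log axes) over 6 bins of the PAN spots ranked by the 4 selecting genes, with exact 95% Poisson intervals; the dotted line marks the 10% boundary of the niche. Car3 went from 188 in the first bin to 14.8 in the last, Spp1 lay between 15521 and 21013, and Umod ran upwards to the last bin.

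No spot of the other 3 sections reached the selecting value of the PAN niche. Their highest spots held 555 CPM of the 4 genes (healthy, 2863 spots ranked), 454 (PAN_LS-FMD, 2180 spots) and 729 (healthy_LS-FMD, 2551 spots). Ranking each section by itself put the 10% boundary at 83.9, 77.5 and 84.5 CPM. The median top spot there held 2, 1 and 1 such UMIs, against 9 in the PAN niche, so those top spots rested on very few molecules. Median depth also differed, at 17638.5 UMIs per top spot in the healthy, 11509 in the PAN_LS-FMD and 7811 in the healthy_LS-FMD section. Barcodes shared between sections (1650 to 2279 per pair) are positions on the slide, and no spot had identical counts in 2 sections.

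Genes of high fold in the niche were scarce in those sections as a whole. Car3 was at 6.33 CPM in the healthy, 1.09 in the PAN_LS-FMD and 1.23 in the healthy_LS-FMD section, against 23.8 CPM in the PAN spots outside the niche. Cdkn2b was at 0.529 CPM in the healthy, 0.544 in the PAN_LS-FMD and 0.159 in the healthy_LS-FMD section, and 14.2 CPM in the other PAN spots. For Ankrd1 the values were 1.91 CPM in the healthy, 3.15 in the PAN_LS-FMD and 3.96 in the healthy_LS-FMD section, and 14.4 CPM in the other PAN spots. The PAN spots outside the niche therefore lay above all 3 sections in these genes, and the niche lay higher still. Pnoc was the one of these with a clear level elsewhere among injected kidneys: 0.188 CPM in the healthy, 10.7 in the PAN_LS-FMD and 0.159 in the healthy_LS-FMD section.

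Collagen and osteopontin genes had another pattern. Col1a1 was at 43.0 CPM in the healthy, 33.8 in the PAN_LS-FMD and 44.0 in the healthy_LS-FMD section, against 372 CPM in the other PAN spots and 629 in the niche. Spp1 was at 332 CPM in the healthy, 225 in the PAN_LS-FMD and 1288 in the healthy_LS-FMD section, against 16867 and 20511 CPM. For both, the step from the healthy section to the other PAN spots (8.67-fold and 50.7-fold) was larger than the step from those spots to the niche. Umod and Kap were lower in PAN on both sides of the boundary: Umod was at 7252 CPM in the healthy, 7669 in the PAN_LS-FMD and 7125 in the healthy_LS-FMD section, and Kap at 17932 CPM in the healthy, 17617 in the PAN_LS-FMD and 13351 in the healthy_LS-FMD section, against 2198 CPM in the other PAN spots and 658 in the niche.

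Within the other sections the top spots shared some features of the niche. In the order healthy, PAN_LS-FMD and healthy_LS-FMD, summed fibrillar collagens were at 1.97-fold, 1.51-fold and 1.66-fold, against 1.54-fold in the PAN niche. Myofibroblast markers were at 1.91, 1.40 and 1.60 (PAN 1.60), and lymphatic markers at 2.75, 1.55 and 3.12 (PAN 1.57). Podocyte markers were at 1.29, 2.07 and 1.58 (PAN 1.37). YAP and TEAD targets differed less than in PAN, at 1.19, 1.28 and 1.25 (PAN 2.004). Cnn1 was 8.06-fold higher in the top spots of the healthy section (14.3 against 1.77 CPM). It was 4.92-fold higher in those of the healthy_LS-FMD section (11.7 against 2.37 CPM), and Actg2 was 7.59-fold and 7.70-fold higher. In the PAN_LS-FMD section the summed arterial smooth muscle list, to which both genes belong, was 1.47-fold higher, with 2 of 4 measured members called. Col1a1 was 2.32-fold, 1.63-fold and 1.84-fold higher in the top spots of the healthy, PAN_LS-FMD and healthy_LS-FMD sections. Umod did not follow its course in PAN: its folds were 1.07, 1.01 and 1.03 in the same order. Differences between sections were not tested, since each group had 1.

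**Figure D5:**
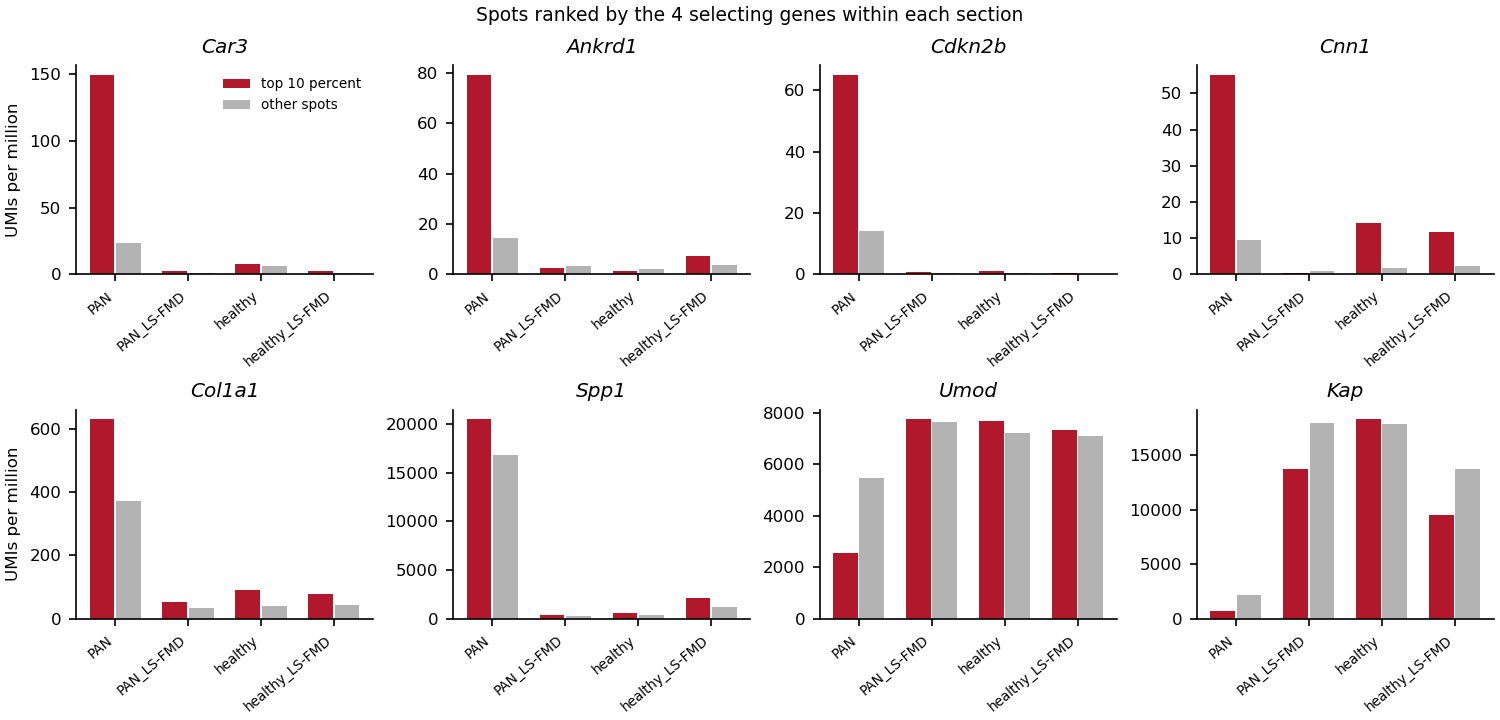
Pooled levels of 8 genes in CPM in the top 10% of spots (red) and the other spots (grey) of each section, ranked within the section by the 4 selecting genes; bars start at 0 and each is 1 value per section with no error between animals. Car3, Ankrd1 and Cdkn2b stood out in the PAN niche, Spp1 was high on both sides in PAN, and Umod and Kap were lowest in the PAN niche.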

How the data were processed

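Spatial transcriptomes (Visium) of 4 rat kidney sections, 1 per group, were read as the deposited UMI counts per gene and spot. Per the file headers the authors made these counts with Space Ranger 2.0.1 for the healthy section and 1.2.1 for the other 3. The genome build is not given in the sources used here. Positions of spots were not used here, and no doublet caller was run, since spots are not single cells.

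Spots of at least 3000 UMIs were kept and ranked as the report states. A level (CPM) is a gene's pooled UMIs per 1000000 in a set of spots, and a fold is the ratio of 2 such levels with an exact 95% interval. Genes of at least 200 UMIs over the ranked PAN spots counted as measured, and 1.5-fold was the threshold. Of 814 symbols on the gene lists, 789 were found and 491 measured. Genes can stand on more than 1 list. Clusters were made without the selecting genes from values scaled to 10000 per spot, with 2000 variable genes, 30 components, 15 neighbours and Leiden resolution 1. Python 3.11.15, NumPy 2.4.6, SciPy 1.17.1, pandas 2.3.3 and scanpy 1.11.5 were used, and the scripts were tested on simulated data. Promoters came from RefSeq (GRCr8).

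The members and lists were chosen with earlier results of these data known. Genes named were the 20 with the highest and 10 with the lowest fold (at least 30 UMIs in the higher set, same direction with spots weighted equally, no selecting, mitochondrial, ribosomal, haemoglobin or provisional symbols), up to 4 members per list by absolute fold, and 15 fixed genes. Results of some genes are not reported here. Further list members and the genes of the closing paragraphs were chosen after their values were seen. Alternatives covered the minimum UMIs per spot and gene, the size of the niche, each ranking gene left out, depth, scaling, weighting of spots, comparison spots and cluster resolution.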

Additional observations from a re-analysis of the deposited data

How the results depend on the processing

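Beside 540 genes at least 1.5-fold higher and 630 lower, the counts became 323 and 321 with the top 20% of spots, 175 and 279 with every spot thinned to 3000 UMIs, 947 and 1015 with genes of at least 50 UMIs, 179 and 340 with genes of at least 1000 UMIs, and 201 and 353 against the 521 other spots of the 3 clusters that held most niche spots. The 14 lists with a median fold of at least 1.5 became 3 after thinning and 2 against those 521 spots. The thinned ranking kept 63.2% of the niche spots. Log2 values turned in sign for some named genes and lists. After thinning they were 0.0724 for Krt18 and 0.0491 for Atp6v0d2. With genes of at least 1000 UMIs the podocyte median was -0.0264. Against the 521 spots the medians were 0.22 for the S1 and S2 list, 0.0037 for principal cells and -0.0467 for skeletal muscle. In that setting single genes were at -0.27 (Mmrn1), -0.14 (Ccl21), -0.0269 (Cd79b), 0.28 (Pck1), 0.28 (Slc22a6), 1.04 (Aqp4), 0.10 (Atp6v0d2), 0.39 (Rhcg) and -0.0095 (Itga11). Leaving out spots rich in podocyte or in arterial genes, both added after the data were seen, turned no called gene among those reported. The cause of these shifts was not tested. Of the named genes, 151 moved further than their counting interval against the 521 spots, 9 turned and 45 did neither; after thinning these counts were 93, 2 and 32. No paired analysis was possible because each group had 1 section and no test was run. Counting error limits genes with few UMIs, and the spread between animals was not measured.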

Other observations

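The genes of these paragraphs were chosen after their values were seen. Of the genes called higher, the one with the most UMIs in the PAN spots was Mgp (matrix Gla protein), a small inhibitor of calcification made by vascular and stromal cells. It held 21306 UMIs in the niche and stood at 9533 against 4570.1 CPM, 2.09-fold (2.06 to 2.12). The healthy section had 722 CPM. Troponin genes, which belong to striated muscle, were also present: Tnni1 of slow skeletal muscle was at 4.45-fold (3.78 to 5.24), Tnnt2 of heart muscle at 2.99-fold (2.19 to 4.05) and Tnnc1 of slow and heart muscle at 2.82-fold (2.06 to 3.82). Tnnc1 was at 25.1 against 8.87 CPM, and at 32.1 CPM in the healthy, 46.8 in the PAN_LS-FMD and 31.8 in the healthy_LS-FMD section, above its level in the niche. Tnnt3 of fast muscle was at 1.35-fold (0.910 to 1.95). Tnni1 and Tnnt2 lie on chromosome 13 of GRCr8 with Lad1 between them, and their starts are 37.6 kb apart.

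Gclc, Gclm, Osgin1 and Cat are 4 single genes that were lower in the niche. Gclc, the catalytic subunit of the enzyme that limits glutathione synthesis, was at 0.395-fold (0.372 to 0.419) and its partner Gclm at 0.660-fold (0.609 to 0.714). The NRF2 target Osgin1 was at 0.477-fold (0.433 to 0.524) and catalase (Cat) at 0.583-fold (0.545 to 0.624). Trefoil factor 3 (Tff3), a secreted peptide of epithelia, was at 815 against 2039.8 CPM, 0.399-fold (0.381 to 0.419), and at 11609 CPM in the healthy section.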
